A study of Mus musculus with 16 samples.

Results

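The 7 genes described here are the demethylases that erase N6-methyladenosine (m6A) from RNA, Fto and Alkbh5, and the readers that bind it through a YTH domain, Ythdf1, Ythdf2, Ythdf3, Ythdc1 and Ythdc2. They were chosen by gene symbol alone, and each had 1 row among the 24539 genes of every read count table. The study set livers of mice fed betaine with a high-fat diet (HB) against livers of mice fed the high-fat diet without it (HF). All mice were male C57BL/6, the diets began at 8 weeks of age and lasted 8 weeks, and the livers were taken at 16 weeks. Betaine is a methyl donor, and no group on ordinary chow was part of these comparisons. From each diet, 2 libraries of total polyadenylated mRNA were used, 2 of mRNA from pelleted ribosome nascent-chain complexes (ribosome-bound mRNA) and 2 of RNA fragments pulled down with an anti-m6A antibody. Input libraries of the m6A pull-down were not analysed here. As the labels have it, each RNA-seq sample was a pool from 2 independent experiments, so every p-value below measures the spread between pools and not between mice.

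m6A is laid down on nascent mRNA by a methyltransferase complex, preferentially near stop codons and in long internal exons. FTO and ALKBH5 are iron- and 2-oxoglutarate-dependent dioxygenases of the AlkB family that remove it, and FTO also acts on the related mark m6Am beside the mRNA cap. YTHDF2 brings the CCR4-NOT deadenylase to methylated mRNA and promotes its decay, YTHDF1 and YTHDF3 have been linked to translation and decay in the cytoplasm, YTHDC1 binds m6A in the nucleus and takes part in splicing and export, and YTHDC2 is a helicase best known for its role in the germ line. In liver, Fto and the YTHDF proteins have been studied for their part in fat metabolism.

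Depth was 22492813 and 18011999 reads in HB mRNA and 11437462 and 11570775 in HF mRNA, and 6508500 and 8659310 in HB ribosome-bound mRNA and 5778439 and 6431510 in HF ribosome-bound mRNA. Of all genes, 14981 to 15556 had a read in an mRNA library and 8313 to 9374 in a ribosome-bound library, where 0 reads were thus common. The HB ribosome-bound libraries were close to repeats of each other, with a chi-square per degree of freedom of 1.40 over 9197 genes, against 34.7 to 98.5 in the other pairs. Their reads were therefore summed and counted as 1 sample. The hepatocyte markers Alb, Apoa1, Ttr, Cps1, Cyp3a11 and Serpina1c were all detected, with a summed level of 104700 and 98400 CPM (read counts scaled to a common library total) in HB mRNA against 70630 and 77550 in HF mRNA. Each of the marker lists for macrophages, endothelium, stellate cells, bile duct, lymphocytes and neutrophils summed to 244 CPM or less in every mRNA library. Red cell markers reached 1206 CPM in HB mRNA replicate 2, against 301 to 390 in the other mRNA libraries. Between diets, 0 of 6 hepatocyte and 2 of 6 macrophage markers (higher in HB, list median log2 change 0.69) were called in mRNA. So were 1 of 3 tested red cell (higher) and 2 of 2 tested neutrophil markers (lower, median -2.70). Of the endothelial, stellate, bile duct and lymphocyte markers 0 were called, beside 21.4% of all genes tested. Neutrophil markers summed to 2.03 and 2.53 CPM in HB mRNA and 3.89 and 24.99 CPM in HF mRNA replicates 1 and 2, so HF replicate 2 stood apart. The part of any cell type in the values below was not tested, and in bulk liver fewer cells of a type and less RNA per cell cannot be told apart.

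By position in the mm10 build, Fto spans 355.1 kb of chromosome 8 (91313367 to 91668433), and the other 6 genes 16.56 to 61.99 kb. Alkbh5 lies on chromosome 11 (60537683 to 60558512), Ythdf1 on chromosome 2 (180904377 to 180920936), Ythdf2 on chromosome 4 (132184916 to 132212256), Ythdf3 on chromosome 3 (16183148 to 16217037) and Ythdc1 on chromosome 5 (86803980 to 86836659). Promoter sequences of 5 of the 7 were at hand from RefSeq (GRCm38.p6). That of Ythdc1 is shown because it alone had an m6A peak over it, described further on. It covers the 250 bases before the start that the RefSeq promoter table uses for the gene, chr5:86804016-86804265 on the plus strand. The gene span, which joins all of its transcripts, begins a little before this window, so the window lies inside the span. The 64 capitals mark the bases under the peak of HF m6A replicate 2.
Ythdc1 promoter: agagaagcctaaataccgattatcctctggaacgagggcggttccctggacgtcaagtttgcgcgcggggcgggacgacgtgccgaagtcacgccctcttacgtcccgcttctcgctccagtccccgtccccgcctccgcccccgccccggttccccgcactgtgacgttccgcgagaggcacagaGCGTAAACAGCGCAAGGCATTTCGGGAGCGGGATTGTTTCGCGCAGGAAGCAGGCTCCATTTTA
In the promoter windows, which add the first 50 transcribed bases, the letters GGACT, a core form of the m6A consensus, were searched on both strands. The Ythdc1 window held them 0 times on the gene's strand and 1 time on the other, the Fto window 1 time on each, the Alkbh5 window 1 and 2 times, the Ythdf1 window 0 and 1 times, and the Ythdf2 window on neither strand. Of 32851 mouse promoter windows of that length, 45.5% held the letters on either strand and 26.1% on the gene's strand.

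Levels were first set beside each other per transcript length, as the deposited RPKM (a count divided by the length of the gene's longest transcript and by the library's reads). In HB mRNA, 5 genes lay close together. Ythdf3 averaged 9.67 ± 4.17 RPKM, Ythdc1 8.96 ± 1.62, Alkbh5 8.80 ± 2.65, Ythdf1 7.24 ± 1.91 and Fto 7.06 ± 1.76 (SD, n = 2 each), and the ranges of neighbours in that order overlapped. Ythdf2 followed at 4.10 ± 0.311 RPKM and Ythdc2, a gene with high expression in testis, at 0.578 ± 0.308, both clear of their neighbours. In HF mRNA the order was steeper and no neighbours overlapped, from Ythdc1 at 26.7 ± 4.03 RPKM through Ythdf3 at 20.5 ± 0.0335, Ythdf1 at 11.5 ± 1.12, Alkbh5 at 7.58 ± 0.0444, Ythdf2 at 4.98 ± 0.418 and Fto at 3.65 ± 0.218 to Ythdc2 at 1.10 ± 0.0657 (SD, n = 2 each).

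Ythdc1 and Ythdf1 had the highest levels of the 7 in ribosome-bound mRNA of both diets. In HB ribosome-bound mRNA, where the pair counts as 1 sample, Ythdc1 stood at 31.7 RPKM, Ythdf1 at 24.2, Ythdf3 at 9.33, Alkbh5 at 6.08, Fto at 2.78, Ythdf2 at 2.27 and Ythdc2 at 0. In HF ribosome-bound mRNA, Ythdc1 averaged 50.5 ± 1.29 RPKM, Ythdf1 21.2 ± 5.06 and Ythdf3 12.1 ± 2.49 (SD, n = 2 each). Below them Ythdf2, Fto, Alkbh5 and Ythdc2 averaged 4.98 to 0.798 RPKM with ranges that overlapped between neighbours.

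**Figure D1:**
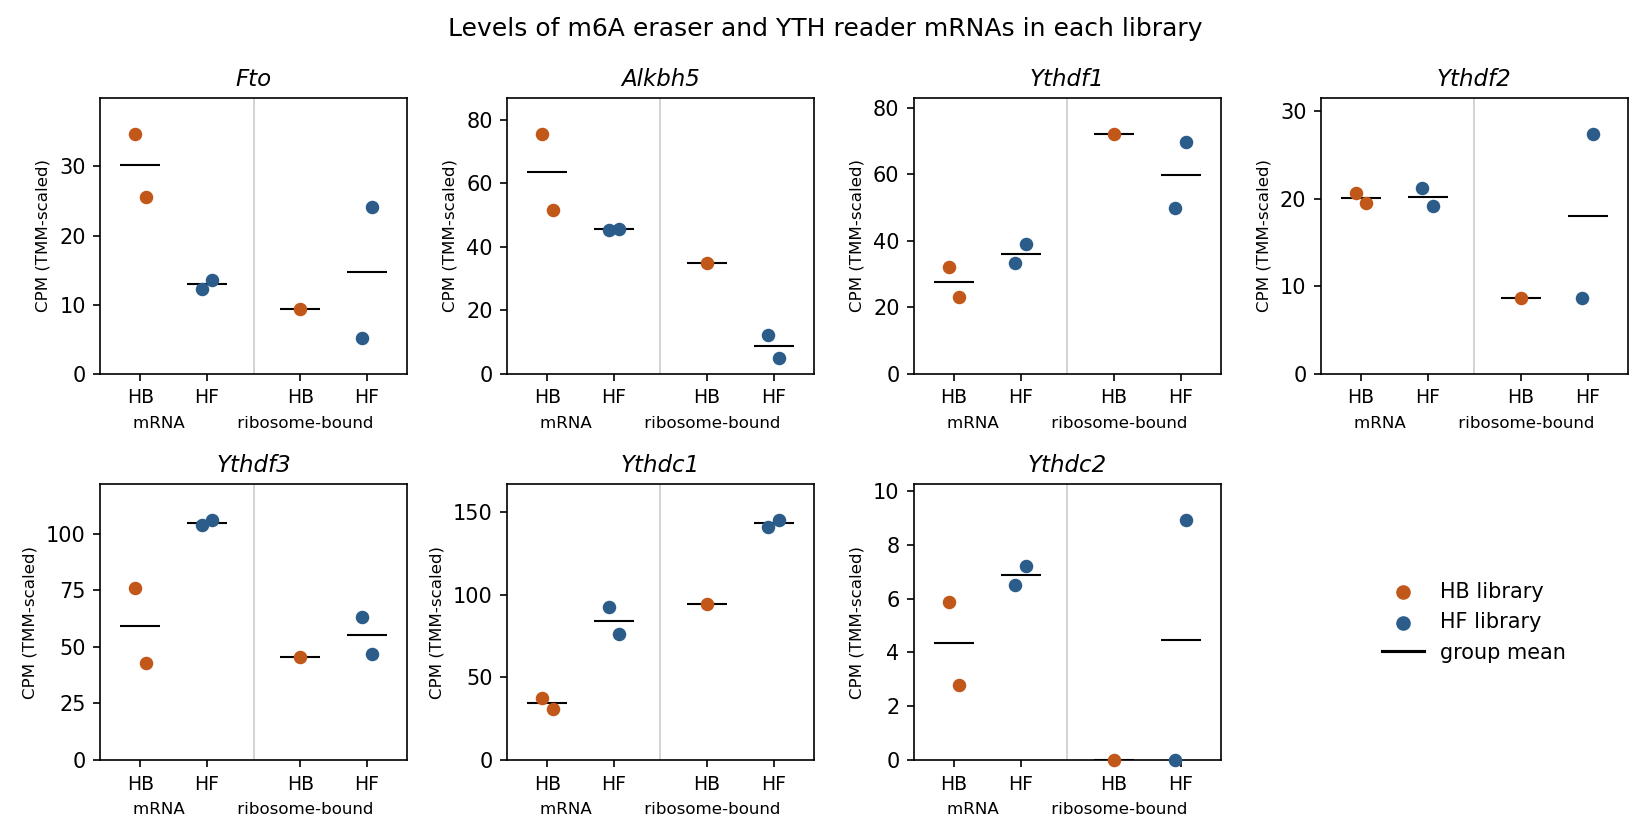
Level of each gene in every library, in CPM scaled over 7 libraries (TMM); each point is a library, each line a group mean, and the HB ribosome-bound pair is 1 point. Fto mRNA was higher and Ythdc1 mRNA lower in both HB libraries than in both HF libraries, and Fto, Ythdf2 and Ythdc2 were far apart between the HF ribosome-bound libraries.

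The first comparison asked which of these mRNAs differed when betaine was added to the high-fat diet. Fto mRNA rose and Ythdc1 mRNA fell in HB, and the other 5 did not pass the threshold of an adjusted p of 0.05 (edgeR, Benjamini-Hochberg over all genes tested). Thus 2 of the 7 genes were called, against 21.4% of the 12817 genes tested. One of the 7 was higher, against 11.3% of all genes, and 1 was lower, against 10.1%. The median log2 change of the 7 was -0.40, that of all genes tested 0.01, and that of the 4193 genes with a transcript length in the range of the 7 was -0.17.

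Of the erasers, Fto had 666 and 374 reads in the HB mRNA libraries against 145 and 160 in HF. Scaled, that was 34.7 and 25.6 CPM in HB against 12.3 and 13.6 CPM in HF, so both HB libraries lay above both HF libraries. The means were 30.1 ± 6.43 CPM in HB and 12.9 ± 0.947 CPM in HF (SD, n = 2 each), a log2 change of 1.21 (SE 0.30, edgeR adjusted p = 0.0201). The change lost its call with total counts in place of TMM (0.93, adjusted p = 0.0530), with limma on RPKM (0.91, 0.0756), and without HB replicate 1 (0.99, 0.0786), HF replicate 1 (1.11, 0.197) or HF replicate 2 (1.23, 0.112). Alkbh5, the other eraser, had 75.5 and 51.6 CPM in HB and 45.2 and 45.7 CPM in HF. Its HB libraries were both higher, but they differed from each other by more than the lower of them differed from HF. The log2 change was 0.47 (SE 0.28, adjusted p = 0.250).

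The cytoplasmic readers gave 3 different pictures. Ythdf1 had 31.97 and 23.1 CPM in HB against 33.3 and 39.0 CPM in HF, a log2 change of -0.40 (SE 0.29, edgeR adjusted p = 0.332), with the groups just apart. Ythdf2, the decay-promoting reader, had 20.7 and 19.6 CPM in HB and 21.2 and 19.2 CPM in HF, with overlapping groups and a log2 change of -0.02 (SE 0.29, adjusted p = 0.969). Ythdf3 had 76.0 and 42.7 CPM in HB against 104 and 106 CPM in HF. Both its HB libraries were lower, HB replicate 2 the more so, and the log2 change of -0.83 (SE 0.32) missed the threshold at an adjusted p of 0.0795. With total counts it was called (-1.11, adjusted p = 0.0327), as it was with no filter on low counts (-0.82, 0.0436) and without HB replicate 1 (-1.29, 0.0487). These 3 genes are close relatives, and how reads that match more than 1 of them were counted is not given in the sources used here.

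The nuclear reader Ythdc1 had 725 and 450 reads in the HB mRNA libraries against 1095 and 896 in HF, although the HB libraries were the deeper ones. That was 37.8 and 30.8 CPM in HB against 92.6 and 76.2 CPM in HF, with the groups far apart. The means were 34.3 ± 4.93 CPM in HB and 84.4 ± 11.6 CPM in HF (SD, n = 2 each), and the log2 change was -1.31 (SE 0.28, edgeR adjusted p = 0.0114). The call was lost without HF replicate 1 (-1.19, adjusted p = 0.0977). The helicase reader Ythdc2 was the least abundant, with 5.88 and 2.80 CPM in HB and 6.51 and 7.22 CPM in HF, and its log2 change of -0.66 (SE 0.43) had an adjusted p of 0.281. In a model of all 7 mRNA and ribosome-bound libraries, whose spread is far wider (dispersion 0.466 against 0.0644), neither Fto (1.22, adjusted p = 0.636) nor Ythdc1 (-1.30, 0.239) was called. No gene at all was called between diets in mRNA there, so the mRNA calls of the gene lists below are lost in it too.

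**Figure D2:**
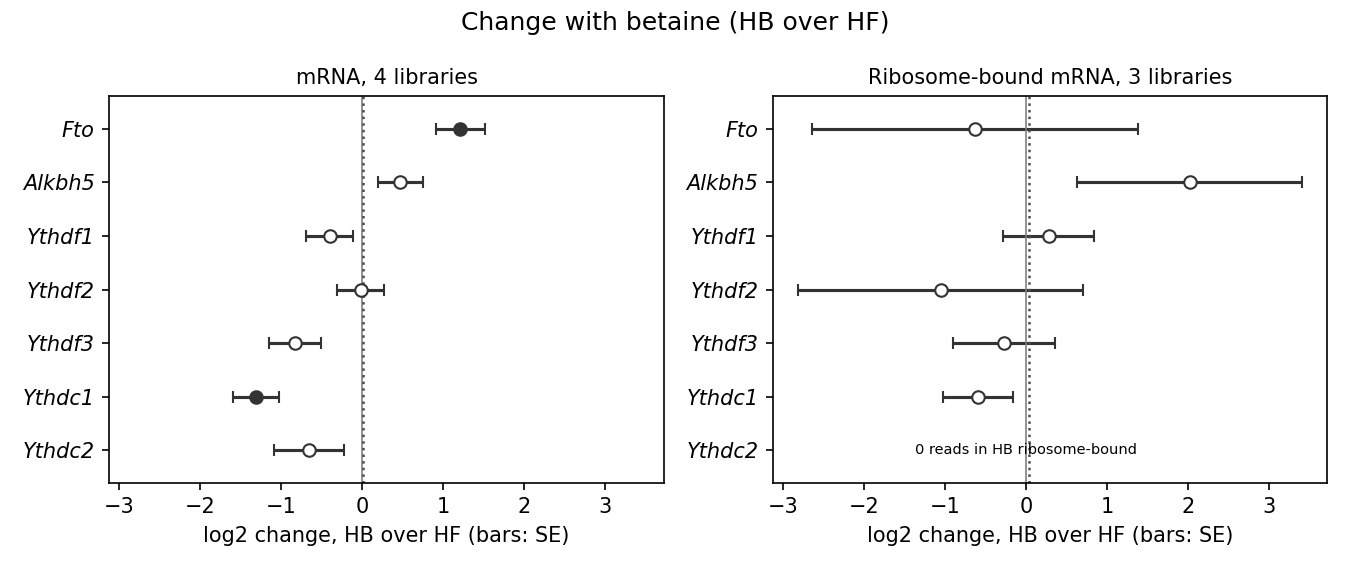
Log2 change, HB over HF, in total mRNA (left) and ribosome-bound mRNA (right), with bars of 1 SE, the dotted line at the median of all genes tested and filled points for genes past an edgeR adjusted p of 0.05. Fto at 1.21 and Ythdc1 at -1.31 are filled in mRNA, and no gene is filled in ribosome-bound mRNA, where the bars are several times longer for Fto, Alkbh5 and Ythdf2.

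In ribosome-bound mRNA, the same diet comparison passed for none of the genes. Of the 7, 6 could be tested, since Ythdc2 did not pass the filter on low counts, and 0 were called, with 0% of 8648 genes called in all. At an unadjusted p under 0.05 edgeR had 321 genes, none of the 6 among them, and DESeq2 called 761 genes, again none of the 6. The fit had 1 residual degree of freedom and a dispersion of 1.17, against 0.0644 in the mRNA libraries.

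Fto had 57 and 96 reads in HB ribosome-bound mRNA and 34 and 176 in HF. The scaled levels were 9.44 CPM in HB and 5.23 and 24.1 CPM in HF, so the HB value lay between HF libraries that differed about as widely as any group here, and the log2 change was -0.63 (SE 2.01). For Alkbh5 the reads were 219 and 345 in HB against 79 and 37 in HF, or 34.8 CPM in HB against 12.2 and 5.07 CPM in HF. The HB value was above both HF libraries, and the log2 change was 2.02 (SE 1.39, unadjusted p = 0.230). Alkbh5 thus had the highest estimate of the 6 genes and did not stand out from the spread between libraries.

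Among the readers, Ythdf1 had 72.1 CPM in HB ribosome-bound mRNA against 49.98 and 69.6 CPM in HF, a log2 change of 0.28 (SE 0.56). Ythdf2 had 8.64 CPM in HB against 8.61 and 27.4 CPM in HF (-1.05, SE 1.76), and Ythdf3 45.5 CPM in HB against 63.4 and 46.7 CPM in HF (-0.27, SE 0.63). Ythdc1 had 94.6 CPM in HB and 141 and 145 CPM in HF, the tightest HF pair of the 7 genes, and its log2 change of -0.59 (SE 0.43) had an unadjusted p of 0.248. Ythdc2 had 0 reads in both HB ribosome-bound libraries, and 0 and 65 reads in HF ribosome-bound replicates 1 and 2. Against the 154 reads of HB mRNA, the 0 reads in HB ribosome-bound mRNA gave a level at least 19.2-fold lower than in mRNA, with 3 reads over both libraries as the floor. Against HB mRNA replicate 1 or 2 alone the bound was 25.4-fold or 11.5-fold. These bounds use reads over library totals and cover counting error only.

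The next comparison set ribosome-bound mRNA over total mRNA within each diet, a relative measure of how much of an mRNA is on ribosomes. In HB, Ythdc1 was higher among ribosome-bound mRNA, and it alone of the 7 was called, against 28.5% of the 12721 genes tested. One of the 7 was called higher, against 5.85% of all genes, and 0 lower, against 22.6%. The 94.6 CPM of HB ribosome-bound mRNA stood above 37.8 and 30.8 CPM in HB mRNA, and the log2 ratio was 1.46 (SE 0.28, edgeR adjusted p = 0.0200) where the median of all genes was -0.76. The same HB mRNA libraries enter the diet comparison of Ythdc1 above, so these results are not independent. The call was lost without any one of the mRNA libraries (1.34 to 1.62, adjusted p = 0.0693 to 0.0754), settings in which no gene at all was called, and with limma voom weighted by fraction (1.47, 0.110).

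Ythdf1 resembled Ythdc1 in HB, with 72.1 CPM in ribosome-bound mRNA and 31.97 and 23.1 CPM in mRNA. Its log2 ratio of 1.39 (SE 0.40) missed the threshold at an edgeR adjusted p of 0.0583, and was called with total counts (1.74, 0.0310), with limma on RPKM (1.75, 0.0457) and by DESeq2 (0.0130). The other genes of the set had negative estimates in HB, where the median of all genes was negative too (-0.76). Fto was at -1.67 (SE 1.07, adjusted p = 0.301), Ythdf2 at -1.22 (SE 0.87, 0.354), Alkbh5 at -0.87 (SE 0.64, 0.369) and Ythdf3 at -0.38 (SE 0.45, 0.593). None of these passed, and 38.46% (Fto) to 56.45% (Ythdf3) of the genes tested had a still lower ratio. Ythdf3 changed sign with limma on RPKM.

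In HF, Alkbh5 was lower among ribosome-bound mRNA and alone of the 7 passed, against 29.3% of the 12721 genes tested. One of the 7 was called lower, against 25.3% of all genes, and 0 higher, against 3.99%. Alkbh5 had 12.2 and 5.07 CPM in HF ribosome-bound mRNA against 45.2 and 45.7 CPM in HF mRNA, so the groups were well apart. The log2 ratio was -2.40 (SE 0.53, edgeR adjusted p = 0.0263) with a median of -0.55 over all genes, and 26.35% of the genes tested had a still lower ratio. The call was lost in a fit of the HF libraries alone (adjusted p = 0.0837), with limma voom weighted by fraction (-2.53, 0.184) and without any one of the mRNA libraries (0.0669 to 0.125). Ythdc1 had 141 and 145 CPM in HF ribosome-bound mRNA against 92.6 and 76.2 CPM in HF mRNA, a log2 ratio of 0.76 (SE 0.24) that missed the threshold at an adjusted p of 0.0730. It was called by DESeq2 (0.84, 0.00611) and with total counts (0.90, 0.0499).

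Ythdf1 had 49.98 and 69.6 CPM in HF ribosome-bound mRNA against 33.3 and 39.0 CPM in HF mRNA (log2 ratio 0.73, SE 0.34, edgeR adjusted p = 0.197), again with groups apart. Ythdf3 had 63.4 and 46.7 CPM in HF ribosome-bound mRNA against 104 and 106 CPM in HF mRNA (-0.93, SE 0.37, 0.137). For Fto (0.18, SE 0.80), Ythdf2 (-0.17, SE 0.67) and Ythdc2 (-0.62, SE 1.9) the HF ribosome-bound libraries lay on both sides of the mRNA libraries. Their adjusted p-values were 0.874 to 0.914, and HF ribosome-bound replicate 1 was the lower one in each of these 3 genes.

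**Figure D3:**
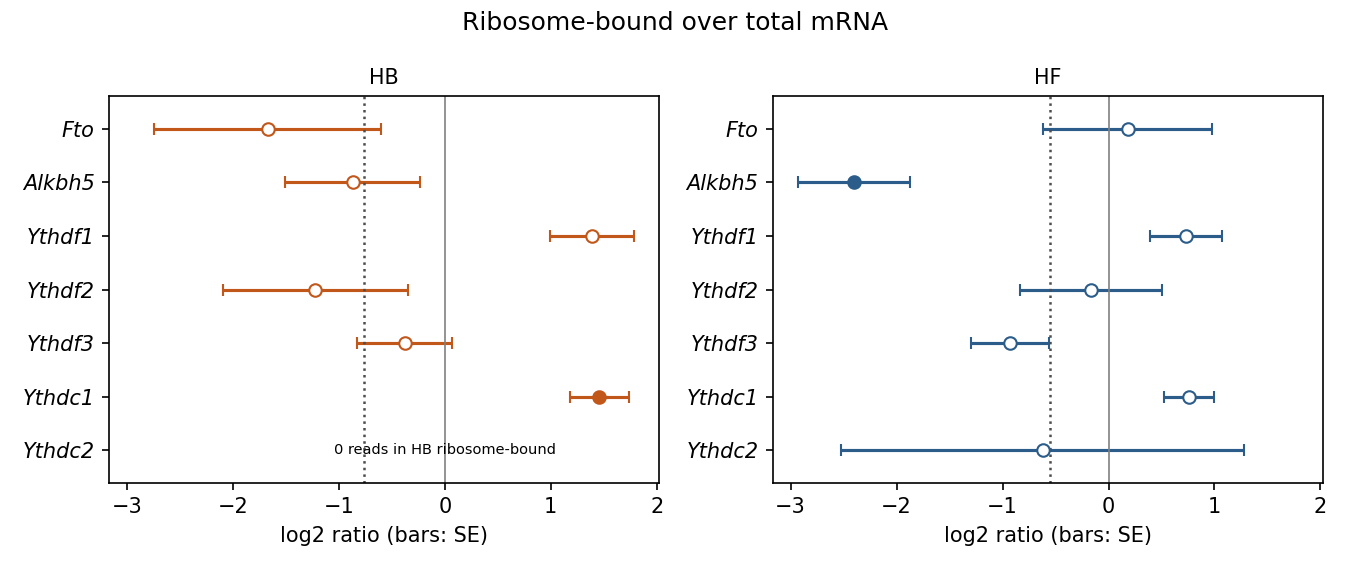
Log2 ratio of ribosome-bound over total mRNA in HB (left) and HF (right), with bars of 1 SE, the dotted line at the median of all genes tested and filled points past an edgeR adjusted p of 0.05. Ythdf1 and Ythdc1 lie to the right of 0 in both diets, with Ythdc1 at 1.46 in HB filled, and Alkbh5 at -2.40 in HF is the filled point on the left.

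Whether that ratio changed with diet was tested directly as the interaction of diet and kind of library. For the 7 genes 0 calls were made, against 9.98% of the 12721 genes tested (6.08% higher and 3.91% lower). The difference of log2 ratios, HB minus HF, was -1.86 (SE 1.31, edgeR adjusted p = 0.523) for Fto, 1.53 (SE 0.78, 0.356) for Alkbh5, 0.66 (SE 0.53, 0.594) for Ythdf1, -1.05 (SE 1.08, 0.729) for Ythdf2, 0.55 (SE 0.57, 0.742) for Ythdf3 and 0.70 (SE 0.37, 0.365) for Ythdc1. So the ratios called in 1 diet, Ythdc1 in HB and Alkbh5 in HF, were not shown to differ between diets. Ythdc2 gives no usable value here, because it had 0 reads in HB ribosome-bound mRNA.

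Other m6A genes and the rest of the AlkB family were counted in the same mRNA comparison, in which 11.3% of all genes were called higher and 10.1% lower. Of 9 subunits and partners of the methyltransferases (writers), 0 rose and 1 fell in HB. That was Zc3h13, a scaffold of the complex, with 28.6 and 36.7 CPM in HB against 119 and 83.2 CPM in HF, a log2 change of -1.64 (edgeR adjusted p = 0.00751). Of the 7 other AlkB family genes 0 were called, Alkbh2, a DNA repair enzyme, having the smallest p (-0.91, adjusted p = 0.0941). Of 8 other proposed readers 0 were called, the nearest being Prrc2a (-0.92, 0.0593). Zc3h13 was not called without HB replicate 1 (-1.46, adjusted p = 0.0574). The median log2 changes were -0.15 for the writers, -0.33 for the AlkB family and -0.38 for the other readers, against 0.01 over all genes.

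Partners of the readers were counted likewise, and with so few genes their counts lie near the shares of all genes. Of 11 genes of the CCR4-NOT deadenylase, which YTHDF2 recruits, 1 rose and 2 fell, and their median was -0.23. Cnot9, a subunit that binds recruiting proteins, had 16.2 and 14.0 CPM in HB against 5.58 and 7.74 CPM in HF (1.17, edgeR adjusted p = 0.0301). Cnot7, a catalytic subunit, had 25.2 and 16.4 CPM in HB against 56.4 and 59.3 CPM in HF (-1.49, 0.00903), and Cnot4, a ubiquitin ligase, 10.99 and 8.34 CPM in HB against 21.5 and 24.6 CPM in HF (-1.26, 0.0188). Of 6 other partners tested, 0 rose and 1 fell. It was Nxf1, the mRNA export receptor to which YTHDC1 hands methylated mRNA, with 82.3 and 125 CPM in HB against 293 and 243 CPM in HF (-1.38, 0.0144). Calls were lost without single mRNA libraries for Nxf1 (HB replicate 1, adjusted p = 0.0630; HF replicate 1, 0.0772), and for Cnot4 and Cnot9 without HB replicate 1 (0.0535 and 0.107), HF replicate 1 (0.0591 and 0.312) or HF replicate 2 (0.0831 and 0.0890). Cnot9 was also not called with total counts (0.89, 0.0786) or with limma on RPKM (0.89, 0.0794). In ribosome-bound mRNA 0 genes of these 5 lists were called between diets.

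The ratio of ribosome-bound over total mRNA was counted for these lists too, beside 5.85% of all genes called higher and 22.6% lower in HB, and 3.99% higher and 25.3% lower in HF. Of 9 writers, 1 was called higher and 0 lower in HB, and 1 higher and 1 lower in HF. Zc3h13 had 173 CPM in HB ribosome-bound mRNA and a log2 ratio of 2.41 in HB (edgeR adjusted p = 0.0183) and of 1.21 in HF (0.0456), and Wtap had -1.64 in HF (0.0482). Of the 11 CCR4-NOT genes, the scaffold Cnot1 was called lower in HB (-1.36, 0.0383) and Cnot10 higher in HF (2.97, 0.0242). Of the 6 partners, Nxf1 was called higher in HB (1.81, 0.0235) and 0 were called in HF.

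In the AlkB family, 2 of 7 genes were called higher and 2 lower in each diet. Alkbh7, a mitochondrial enzyme, and Alkbh3, which repairs alkylated nucleic acid, were higher in both diets (2.70 and 2.55 in HB, 2.07 and 1.80 in HF). Those called lower had 0 ribosome-bound reads, so each is given as a bound with 3 reads over the group as the floor. Such a bound covers counting error only. Alkbh8, a tRNA-modifying enzyme, was at least 7.61-fold lower in ribosome-bound than in total mRNA in HB and at least 10.97-fold lower in HF, Alkbh2 at least 24.8-fold lower in HB, and Alkbh6 at least 40.0-fold lower in HF. Of 8 other proposed readers, 0 were called higher and 1 lower in HB, and 1 higher and 2 lower in HF. Hnrnpa2b1 was lower in both diets (-2.26 in HB, -1.67 in HF), Hnrnpc was higher in HF (194 and 187 CPM in ribosome-bound mRNA against 99.4 and 90.01 CPM in mRNA, edgeR adjusted p = 0.0315), and Fmr1, with 0 reads in HF ribosome-bound mRNA, was at least 96.2-fold lower there than in HF mRNA.

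The ratio calls of these lists in HB were lost without any one mRNA library, and those in HF without either HF mRNA library, where no gene at all was called. Some were also lost under other settings. In HF, Zc3h13, Wtap, Alkbh3 and Cnot10 were not called without HB mRNA replicate 1 or without HB mRNA replicate 2, where other genes still were. Wtap in HF was not called with DESeq2's size factors (edgeR adjusted p = 0.0590), total counts (0.0682) or no filter on low counts (0.0671), nor Cnot1 in HB with total counts (0.0903), no filter (0.0685) or limma on RPKM (0.0916). Zc3h13 in HF was not called with no filter (0.0601) or limma on RPKM (0.0546), nor Hnrnpc in HF with no filter (0.0533). Fits of the HF libraries alone lost Zc3h13, Wtap, Alkbh3 and Cnot10 (0.0728 to 0.117). Limma voom weighted by fraction lost Zc3h13, Wtap, Alkbh3, Hnrnpc and Hnrnpa2b1 in HF, and Cnot1, Nxf1 and Hnrnpa2b1 in HB.

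For each gene, the 2 genes with the most similar pattern over the 7 libraries were found by Pearson's r of log2(CPM + 1), among genes with a mean of at least 5 CPM. They were Ywhab (0.984) and Rap1b (0.983) for Fto, and Brd7 (0.996) and Man2a1 (0.993) for Alkbh5. For Ythdf1 they were Casc4 and Trim12c (both 0.979), for Ythdf2 Pag1 (0.996) and Ncdn (0.995), and for Ythdf3 Gpcpd1 (0.964) and Mfsd14a (0.954). For Ythdc1 they were Son, an RNA-binding splicing cofactor (0.989), and Msh3 (0.986), and for Ythdc2 Tgfbr1 (0.999) and Nek1 (0.993). Each is the best of 9628 genes (9629 for Ythdc2) on 7 points that fall into 4 groups of unlike depth, so these values are descriptions only.

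The m6A libraries were then used to ask where these genes' own transcripts carry the mark. The deposited lists held 22086 and 25718 peaks in HB and 22060 and 24141 in HF, all with a fold enrichment of at least 6 as the authors' caller gave it. Peaks were assigned to a gene by its span, introns included and without regard to strand. All 7 genes held at least 1 peak in at least 1 library, against 82.6% of 12477 tested genes with a known span. Together the spans held 22 and 19 peaks in the HB libraries and 20 and 32 in the HF libraries. The mean was 5.5 peaks lower in HB (exact permutation test, two-sided, p = 0.667, the smallest p that 2 against 2 allows being 0.333). Without Fto the counts were 14 and 13 in HB and 10 and 13 in HF.

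The regions that recurred in 3 or 4 libraries were in readers. A region was counted as shared when peaks of different libraries overlapped by at least 1 base. Of 93 peaks in the 7 spans, 29.0% lay in regions found in more than 1 library, against 35.2% of all peaks in tested genes. A region present in all 4 m6A libraries was found in 2 of the 7 genes, Ythdf2 and Ythdc1, against 13.5% of 12477 genes. They held 3 such regions, of which 1 was left at a fold enrichment of at least 10.

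Ythdf2 held 3 and 2 peaks in the HB libraries and 1 and 3 in the HF libraries, and 77.8% of these 9 peaks were shared. The main region ran from 132204000 to 132205592 on chromosome 4, 1593 bases long and 19.9 kb from the low-coordinate end of the gene. The peaks there had fold enrichments of 11.7 and 11.2 in HB replicates 1 and 2, of 11.2 in HF replicate 1, and of 21.2 and 9.88 for the pair in HF replicate 2. A second region, from 132186711 to 132187086, was listed in both HB libraries (fold enrichment 13 and 9.58) and in neither HF library. No test was made of it, since an exact permutation test of 2 libraries against 2 cannot go below a p of 0.333.

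Ythdc1 was the most densely marked of the genes, with 6 and 5 peaks in the HB libraries and 4 and 6 in the HF libraries, or 16.1 peaks per 100 kb and library against 1.2 to 8.23 in the other genes. Of its 21 peaks 61.9% were shared. The region from 86828734 to 86829580 was found in all 4 libraries, with fold enrichments of 6.09 and 14.4 in HB and 23.2 and 20.1 in HF. The neighbouring one from 86827906 to 86828540 was found in HB replicate 2 (9.46) and in HF replicates 1 and 2 (37.1 and 9.18). Another region in all 4 libraries, from 86806285 to 86806886, joined peaks that overlapped as a chain, with fold enrichments of 8.98 and 24.6 in HB and 7.45 and 6.12 in HF. The peak over the promoter window printed above ran from 86804202 to 86804626 and was listed in HF replicate 2 alone, with a fold enrichment of 12.5.

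Ythdf3 held 1 and 4 peaks in the HB libraries and 3 and 1 in the HF libraries. Its region from 16203833 to 16205068 on chromosome 3 was found in HB replicate 2 and both HF libraries, and held the tallest peaks of the set. Their pileups were 500 in HB replicate 2 and 400 and 519 in HF, above 98.5%, 97.9% and 98.4% of the peaks of their own libraries. By fold enrichment they stood out less, at 10.35 in HB replicate 2 and 8.905 and 16.54 in HF, above 66.7%, 50.9% and 82.6%. HB replicate 1 listed no peak there. Ythdf1 held 2 and 1 peaks in HB and 0 and 1 in HF, and Ythdc2, on chromosome 18 (44827730 to 44889720), 2 and 0 in HB and 2 and 2 in HF. No region of either gene was found in more than 1 library.

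Between the erasers the contrast was wide in number of peaks and narrower per length. Alkbh5 held 1 peak in all, in HB replicate 2 at 60548967 to 60549166, with a fold enrichment of 6.21, above that of 6.05% of the peaks in its library. Fto held 8 and 6 peaks in the HB libraries and 10 and 19 in the HF libraries, the most of the 7 genes. Over its span of 355.1 kb that was 3.03 peaks per 100 kb and library, against 1.2 for Alkbh5 over 20.83 kb. Of its 43 peaks 4.65% were shared, in a single region from 91540711 to 91541088 of both HF libraries. Among tested genes with a span of at least 200 kb, 22.6% of 14430 peaks were shared, and 10.6% of 407 such genes with at least 10 peaks shared none. A long noncoding RNA gene, 4831440D22Rik, lies within the Fto span and holds 2 of these peaks. Whether the peaks lie in exons, introns or untranslated regions was not analysed here.

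**Figure D4:**
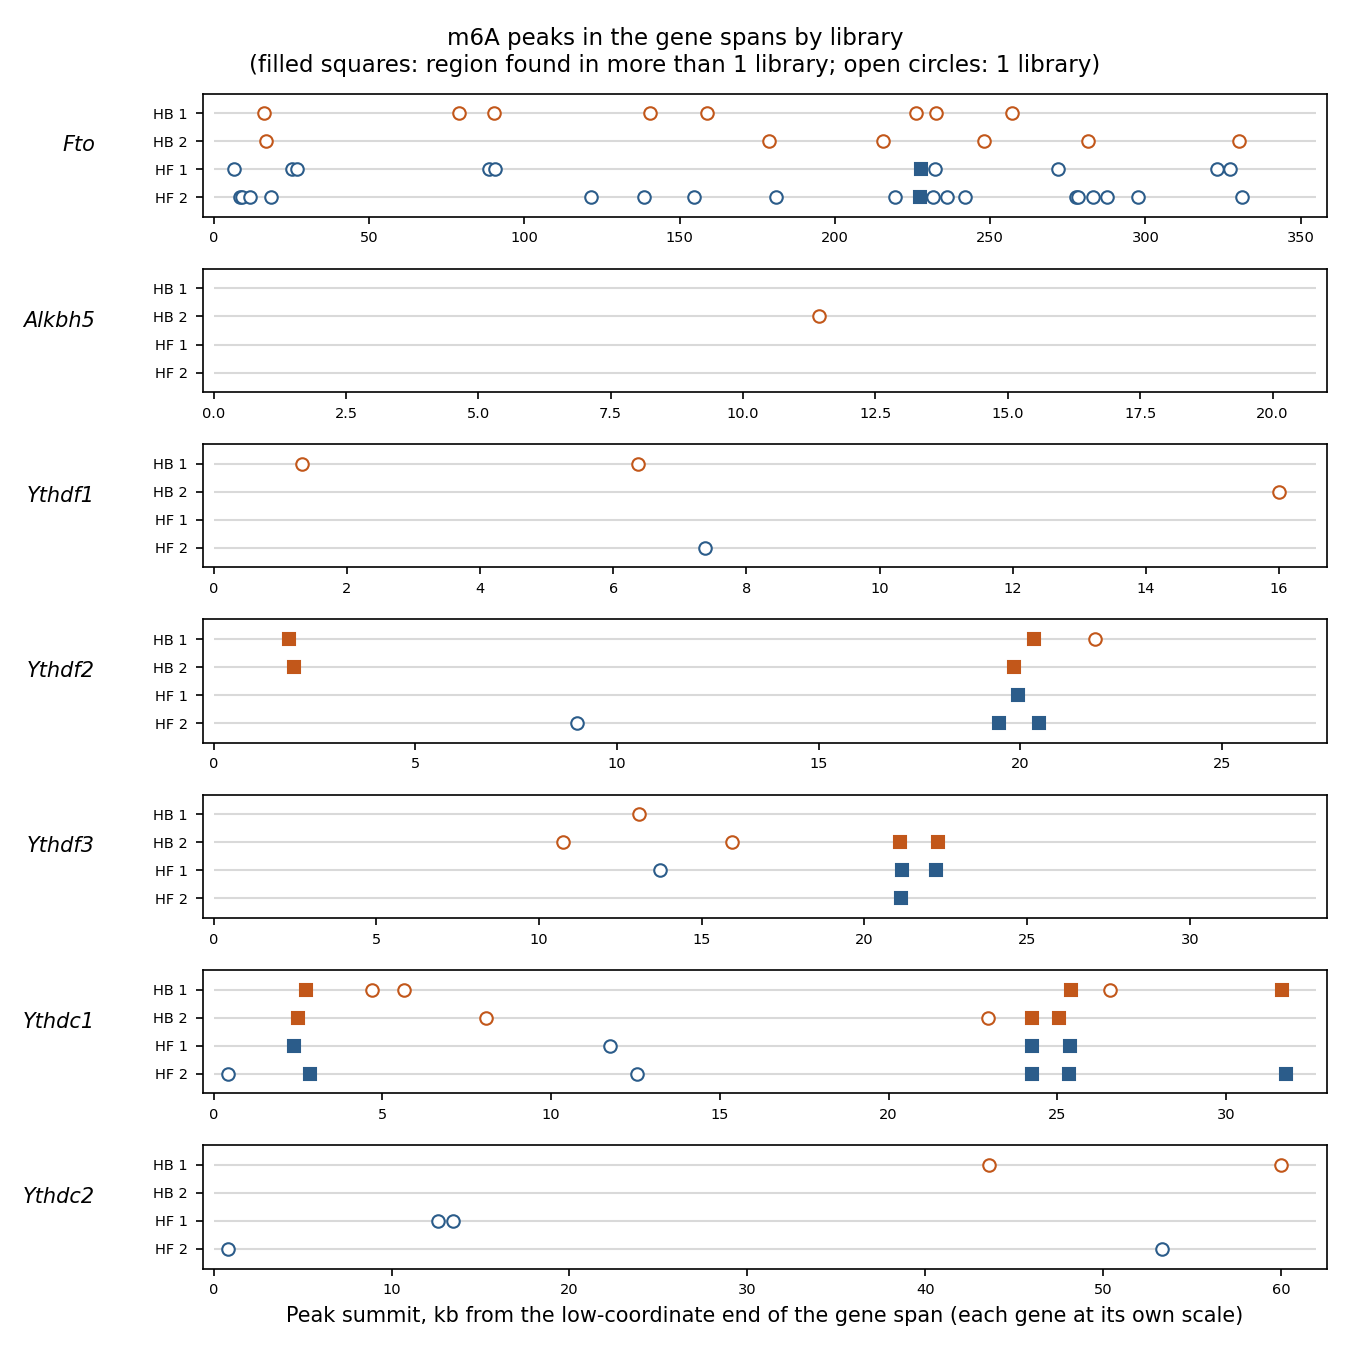
Summit of every m6A peak in the span of each gene, by library, as distance in kb from the low-coordinate end of the gene; filled squares are peaks of a region found in more than 1 library and open circles those of a single library. Peaks of Ythdf2 near 20 kb and of Ythdc1 near 25 kb line up across all 4 libraries, whereas the 43 peaks of Fto are scattered and 2 of them, in HF, coincide.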

How the data were processed

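Total mRNA and ribosome-bound mRNA were mapped to RefSeq transcripts and counted per gene by the authors, per the series' design text, and the deposited read count carries no normalization. The deposited RPKM divides that count by the longest transcript's length and by the library's reads, per the file headers. Peaks of m6A were called by the authors in each library separately. The columns, per the file headers, hold a pileup signal and a fold enrichment (a ratio over background), and from their values 2 more deposited columns are the −log10 of a p-value and a q-value. The scaling of the signal and the counter's strand setting are not given in the sources used here. The submitters' processing notes name HTSeq 0.6.0, HISAT2 2.0.4, cutadapt 1.9.3, HOMER 4.8, MACS2 2.1.0.20151222 and, with no version, edgeR, without their roles, and the mm10 build. Per the labels, Trimmomatic 0.36 and TopHat 2.0.13 served for trimming and aligning the m6A reads.

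Read counts were tested with edgeR 4.0.16 in R 4.3.3 (TMM, quasi-likelihood F test, Benjamini-Hochberg over all genes tested, threshold 0.05). Genes passed edgeR's filterByExpr rule (minimum count 10, minimum total 15) with the smallest group taken as 2 libraries. With the HB pair summed to 1, a gene read only in HB could not enter the ribosome-bound diet test. HB against HF used the 4 mRNA libraries, or 3 ribosome-bound libraries with the HB pair summed. The ratio and its change with diet used all 7 in 1 model of 4 group means, and a lone HB ribosome-bound sample is there assumed to vary like the other groups. CPM values carry the TMM factors of the 7 libraries. Alternatives used limma 3.58.1, with 0.1 added to RPKM before log2, and DESeq2 1.42.0. The procedures were run on simulated counts with less spread than these data showed, far less for the ribosome-bound fit (dispersion 1.17 here). How well the ribosome-bound and ratio tests work at the real spread was not tested.

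The genes, the gene lists and the tests were chosen with earlier results of these data known. Named genes were the 7, up to 4 called genes with the largest change per list and contrast (or 2 with the smallest p), and the 2 genes most similar to each of the 7. Gene spans and promoters are RefSeq's (GRCm38.p6, the mm10 build), with the span of 1 writer (Virma) not matched. Depth limits precision: 3 reads correspond to 0.133 to 0.262 CPM in the mRNA libraries and 0.346 to 0.519 in the ribosome-bound ones.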

Additional observations from a re-analysis of the deposited data

Results flagged for a closer look

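Some relatives of these genes had no reads at all in a ribosome-bound group while they were measured in mRNA. Over all genes, 8313 to 9374 had a read in a ribosome-bound library, against 14981 to 15556 in an mRNA library. Having 0 ribosome-bound reads was thus common and not particular to these genes. Alkbh2 had 0 reads in HB ribosome-bound mRNA against 474 in HF, a level at least 196-fold lower in HB with 3 reads over the group as the floor and reads taken over library totals. The HF reads were 122 and 352 in replicates 1 and 2, and against either library alone the bound was 107-fold or 277-fold. Its mRNA was at 4.63 and 7.52 CPM in HB and 10.9 and 11.6 CPM in HF. Alkbh6 and Fmr1, the gene for the RNA-binding protein FMRP, showed the opposite, with 124 and 140 reads in HB ribosome-bound mRNA against 0 in HF, levels at least 33.3-fold and 37.6-fold lower in HF. The difference between diets in the ratio of ribosome-bound over total mRNA was itself past the threshold for these 3 genes (edgeR adjusted p = 0.0335 for Alkbh2, 0.0348 for Alkbh6 and 0.0350 for Fmr1, a threshold that 9.98% of all genes tested passed). Between diets in ribosome-bound mRNA alone, Alkbh2 was not called (adjusted p = 1). Alkbh6 and Fmr1, read there in the summed HB sample alone, did not pass a filter that asks for 2 libraries and were not tested. Without any one of the mRNA libraries, no gene passed that test. The HB value rests on a pair of libraries counted as 1 sample. All fold bounds given here cover counting error only, not the spread between libraries. In HF ribosome-bound replicates 1 and 2, Cnot9 had 123 and 0 reads and Cnot4 0 and 153. The writer Rbm15b had 97 and 0 reads there, and Ythdc2 0 and 65. Having 0 reads beside 65 to 153 thus also occurred between libraries of the same diet.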

How the results depend on the processing

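Of the 7 genes, 2 were called in mRNA between diets. Limma on RPKM called 1, the model of all libraries 0 (and no other gene), and leaving out a library gave 0 to 2. In HF, 1 ratio was called; total counts, DESeq2 and the HB pair kept as 2 libraries each gave 2, the HF libraries alone and limma voom 0, and leaving out a library 0 to 4. In HB, 1 ratio was called; DESeq2 gave 3 and the HB libraries alone 5, each with Ythdc2 at 0 reads among them, total counts, limma on RPKM and the unsummed pair 2, voom 1, which was Ythdc2 in place of Ythdc1, and leaving out a library 0 to 5. For the change of the ratio, with 0 calls, leaving out a library gave 0 to 4. The high ends came without HF ribosome-bound replicate 1 or 2, when no ribosome-bound group has a replicate and the spread comes from mRNA alone. No ribosome-bound diet call was made for these genes in any setting run, though over all genes the model of all libraries called 1387 and the unsummed pair 1728. The diet test without an HF ribosome-bound library leaves 1 against 1 sample and was not run.

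With total counts, the mRNA median over all genes moved to -0.28, and 783 genes were called higher and 2320 lower in HB, against 1446 and 1294. The replicate block, tried because the labels number the replicates in both diets, called 2 of the 7 in mRNA. With the HB ribosome-bound pair kept as 2 libraries at the same time, it called 0 in ribosome-bound mRNA and 2 in each diet's ratio, as many as the unsummed pair gave with no block. The labels do not say that a number marks a shared source, and same-numbered HB and HF mRNA libraries deviated with r = -0.12. A crossed block, chosen after seeing the data, called 3 of the 7 and 3407 genes in all.

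Signs turned only in estimates not called under the main settings. Leaving out a library gave -0.15 to 0.03 for Ythdf2 in mRNA (0.01 without HB replicate 2, 0.03 without HF replicate 1). In the HF ratio it gave -1.31 (without HF ribosome-bound replicate 2) to 0.90 for Fto, -1.23 to 0.44 for Ythdf2 and -0.70 to 0.37 for Ythdc2, whose upper ends came without HF ribosome-bound replicate 1. It gave -0.73 to 0.09 for Ythdf3 in the HB ratio (0.09 without HB mRNA replicate 1), and -1.66 to 0.01 for Ythdf2 in the change of the ratio. Fto in the HF ratio was also -0.03 with limma on RPKM, -0.01 with the block and -0.16 with voom, and Ythdf3 in the HB ratio 0.02 with limma on RPKM. Ythdc2 without HF ribosome-bound replicate 2 has 0 ribosome-bound reads and gave no usable value. The causes were not tested.

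Of 3 peak regions in all 4 libraries, 1 was left at a fold enrichment of at least 10 and 1 with a reciprocal overlap of 50%, and leaving out a library gave 3 to 5. The difference in peaks per library, HB minus HF, was -5.5; it was -4.5 at a fold enrichment of at least 10, -6 with 1000 bases added at each end, and -11.5 to 0.5 without a library, the last without HF m6A replicate 2.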

Other observations

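A peak region in all 4 m6A libraries was found in 3 of 8 writers with a matched span, Wtap, Zc3h13 and Rbm15, against 13.5% of 12477 tested genes, and in 0 genes of the AlkB family, the other proposed readers, the CCR4-NOT list and the reader partners. At least 1 peak in any library was found in 7 of the 8 writers, in 6 of 7 AlkB genes, 7 of 8 other readers, 11 of 11 CCR4-NOT genes and 4 of 6 partners, against 82.6% of all tested genes. The lists were not tested against each other.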
